A study of Mus musculus with 20 samples.

Results

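Sham-operated mouse hearts from the infarction arm of the study (MISham) were compared with sham-operated hearts from its reperfusion arm (IRSham). The comparison used 8 of the 20 libraries in the series, chosen by their labels, 4 MISham and 4 IRSham. Protein-coding genes were tested on 2 measures of the same short reads, the count per gene and the summed TPM (length-scaled transcript abundance relative to its library, added over a gene's annotated transcripts). A gene is reported as called by both where both tests passed an adjusted p of 0.05 with the same sign. Of 12462 protein-coding genes tested on both measures, 10 met that rule (0.0802%). The tests drew on all 16 short-read libraries. With only the 8 sham libraries in the fit, 2 of the 10 were called by both. Of the 10, 9 belong to 3 of 4 gene lists whose members were followed up: 30 circadian clock genes, 43 genes of protein folding in the endoplasmic reticulum (ER), 97 genes of inflammation and wound matrix, and 31 genes of smooth muscle and pericytes. The lists were chosen with earlier results of these data known. The number of called genes in them, and the shares of all genes printed beside it, are therefore description and no test of a list.

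MISham and IRSham are the surgical controls of a permanent infarction (MI) group, taken 72 h after surgery, and of an ischemia-reperfusion (IR) group with 40 min of "LCA", an abbreviation that the labels leave unexplained, followed by 72 h of reperfusion. By the protocol, MISham tissue covered the same core and peripheral territory as MI, and IRSham tissue covered the core territory of IR, so effects of the operation and of the territory cannot be told apart. The labels give the shams no time of sampling, no hour of day, and no strain, sex or age. Nothing in them says that the libraries are separate animals, and the p-values therefore reflect library-to-library spread only. All fold changes below are MISham relative to IRSham unless MI and IR are named. Both measures come from the same reads, so a gene called by both has not been replicated.

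The circadian clock is a transcriptional loop in which BMAL1 (gene Arntl) and CLOCK switch on their own repressors, the period and cryptochrome genes, while REV-ERB repressors (Nr1d1, Nr1d2) act back on Arntl. In the heart it sets daily rhythms of metabolism and contractility, with Arntl and Dbp peaking at roughly opposite times of day. ER chaperones fold secreted and membrane proteins, and their genes are induced together by ATF6 and XBP1 when unfolded protein builds up. Smooth muscle actin and myosin genes mark vessel walls and also myofibroblasts.

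The tissue carried the marks of heart muscle. Myh6, the adult cardiac myosin heavy chain, stood at 36380 ± 3287 CPM (counts relative to the library's total after TMM scaling; mean ± SD, n = 4 here and throughout) in MISham and 39470 ± 1760 in IRSham. Ventricular Myl2 stood at 5774 ± 526 and 4817 ± 252 CPM. Sln and Bmp10 of the atrium and Sftpc of the lung were not among the genes tested, which does not show that they were absent. The mitochondrial gene mt-Cytb was not among them either, while mt-Nd1 averaged 23240 ± 2630 CPM in MISham. Of 6 atrial genes tested, Nppa, a natriuretic peptide gene of the atrium and of stressed ventricle, was the most abundant, at 20.8 ± 5.72 CPM in MISham and 45.5 ± 14.4 in IRSham (adjusted p = 0.0814, edgeR; 0.00344, DESeq2). Of 2 lung genes tested, Ager was at 0.54 ± 0.07 and 1.09 ± 0.36 CPM without overlap (adjusted p = 0.0933, edgeR). Of 8 epicardial genes tested, 7 were positive and 1 negative, with a median log2 fold change of 1.655. At an unadjusted p under 0.05 there were 5 on counts, and edgeR and limma called 0. DESeq2 called Krt19 (adjusted p = 0.0405), at 5.18 ± 3.35 CPM in MISham and 1.44 ± 0.97 in IRSham. The part of such tissue in the results was not tested. Library totals were 26.2 ± 1.64 M counts in MISham and 27.3 ± 1.78 M in IRSham. On counts, 69 of 14471 protein-coding genes were higher and 145 lower (1.48% in all), and on summed TPM 5 of 12628 were higher and 13 lower (0.143%). Of the 214 genes called on counts, 181 could be tested on TPM, 165 had the same sign there, and 113 of these had an unadjusted TPM p under 0.05. In bulk tissue, fewer cells of a type and less RNA per cell cannot be told apart.

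The 10 genes called by both were 5 lower in MISham (Acta2, Dbp, Per3, Myl9 and Nr1d2) and 5 higher (Manf, Hyou1, Hspa5, Arntl and Tmem171). In all 10, no MISham library overlapped an IRSham library in CPM or in TPM. Such separation in CPM was seen in 7.8% of all protein-coding genes tested and in TPM in 7.53%. Of the 10, 4 belong to the clock, 3 to ER protein folding and 2 to smooth muscle, and Tmem171 encodes a transmembrane protein outside the lists. Nutf2-ps1, which has a pseudogene's symbol but is protein-coding in the annotation used, passed both tests with opposite signs (3.65 on counts and -4.06 on TPM) and is not counted among them. The Ensembl identifiers of the 10 genes are ENSMUSG00000035783 (Acta2), ENSMUSG00000059824 (Dbp), ENSMUSG00000028957 (Per3), ENSMUSG00000067818 (Myl9), ENSMUSG00000021775 (Nr1d2), ENSMUSG00000032575 (Manf), ENSMUSG00000032115 (Hyou1), ENSMUSG00000026864 (Hspa5), ENSMUSG00000055116 (Arntl) and ENSMUSG00000052485 (Tmem171).

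**Figure D1:**
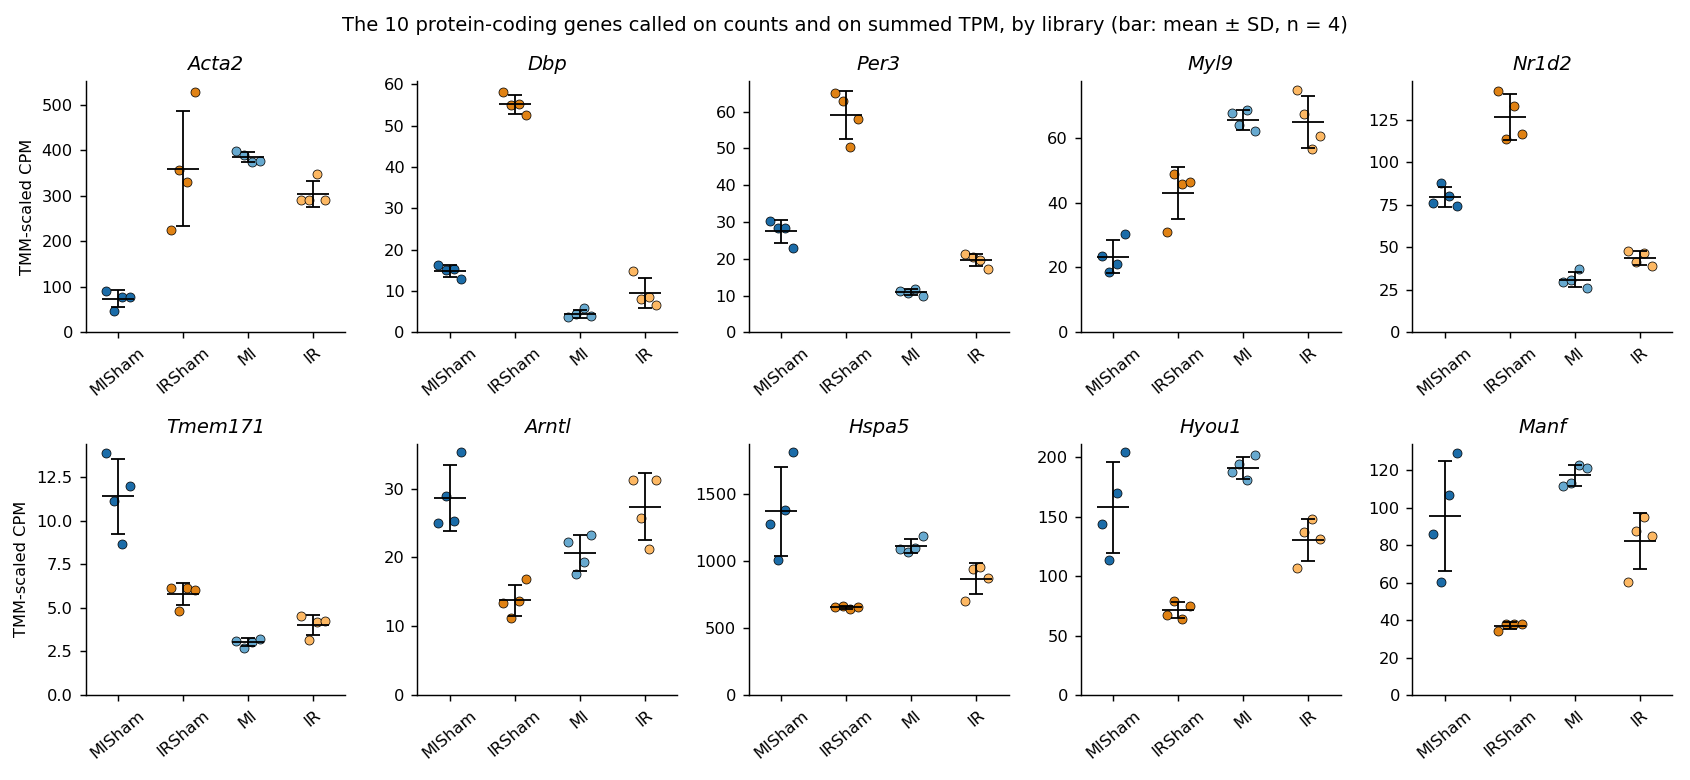
TMM-scaled CPM (linear axis from 0) of the 10 genes called by both measures, in each of 4 libraries of MISham, IRSham, MI and IR; points are libraries and bars the mean ± SD. MISham and IRSham points do not overlap in any panel; Hspa5 ranged from 1009 to 1813 CPM in MISham and from 637.5 to 661.5 in IRSham.

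Clock genes. Arntl was higher in MISham, while Dbp, Per3 and Nr1d2 were lower. These 4 of 30 listed clock genes were called by both tests, beside 0.0802% of all protein-coding genes. On counts 4 members were higher and 8 lower, beside 0.477% and 1.0% of all protein-coding genes, and all 12 kept their sign on TPM with an unadjusted p under 0.05. The 8 of them called on counts alone had adjusted TPM p-values from 0.1005 to 0.423 (limma). The list's median log2 fold change was -0.17, against -0.04 over all protein-coding genes.

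Among the activators, Arntl, which encodes BMAL1, stood at 25.0, 28.9, 25.2 and 35.3 CPM in MISham libraries 1 to 4 and at 13.3, 11.2, 13.7 and 16.8 in IRSham. The lowest MISham library was above the highest IRSham library. The log2 fold change was 1.06 ± 0.15 (SE; adjusted p = 0.00018, edgeR quasi-likelihood test with Benjamini-Hochberg adjustment), a 2.08-fold difference. On summed TPM it was 0.78 ± 0.13 (adjusted p = 0.0234, limma on log2(TPM + 1)).

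Clock, the partner of BMAL1, ranged from 65.9 to 88.3 CPM in MISham and from 56.0 to 59.8 in IRSham, again without overlap. It rose by 0.42 ± 0.08 on counts (adjusted p = 0.00245, edgeR) and by 0.31 ± 0.11 on TPM, where the adjusted p was 0.341 (limma). Npas2, a paralog of Clock, had 0.36 (adjusted p = 0.443, edgeR) and did not pass.

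The repressors moved apart. Per3, a period gene, stood at 30.2, 28.4, 28.3 and 23.1 CPM in MISham and at 65.0, 62.9, 50.4 and 58.1 in IRSham. Each MISham library was well below each IRSham library. Per3 fell by 1.10 ± 0.10 on the log2 scale (adjusted p = 6.558e-07, edgeR), and by 0.93 ± 0.11 on TPM (adjusted p = 0.00283, limma).

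Nr1d2, which encodes REV-ERB beta, stood at 75.8, 87.6, 80.1 and 74.3 CPM in MISham and at 141.9, 113.4, 133.0 and 116.7 in IRSham. It fell by 0.67 ± 0.10 on counts (adjusted p = 0.000371, edgeR) and by 0.79 ± 0.12 on TPM (adjusted p = 0.0196, limma). Its close relative Nr1d1 averaged 42.6 ± 5.72 and 58.8 ± 7.99 CPM, a log2 difference of -0.46 that did not pass (adjusted p = 0.331, edgeR).

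Per2 was at 8.5 to 12.6 CPM in MISham and 15.5 to 26.5 in IRSham, and it fell by 1.06 ± 0.17 on counts (adjusted p = 0.000512, edgeR). Its TPM difference of -0.71 had an adjusted p of 0.1005 (limma). Bhlhe40, which encodes the repressor DEC1, fell by 0.67 ± 0.14 on counts (adjusted p = 0.0113). Per1, also a glucocorticoid target, had -0.88 ± 0.32 and did not pass (adjusted p = 0.212). Against these, Cry1, a cryptochrome, and Nfil3, the repressor that competes with Dbp for its sites, were higher. Cry1 spanned 23.6 to 28.2 CPM in MISham and 16.5 to 19.9 in IRSham, with a log2 fold change of 0.50 ± 0.10 (adjusted p = 0.00623, edgeR). Nfil3 spanned 30.0 to 37.7 and 14.5 to 23.5 CPM, with 0.71 ± 0.13 (adjusted p = 0.00158), but its TPM ranges overlapped.

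Dbp, a PAR bZIP activator of clock-controlled genes, was lower in MISham. It stood at 16.2, 15.1, 15.4 and 12.9 CPM in MISham and at 58.1, 55.0, 55.1 and 52.6 in IRSham. The libraries within each sham lay close together and far from the other sham. Dbp was 3.70-fold lower in MISham, a log2 change of -1.89 ± 0.20 (adjusted p = 6.035e-06, edgeR), with -1.82 ± 0.17 on TPM (adjusted p = 0.000163, limma).

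Tef, of the same family, ranged from 149.5 to 168.2 CPM in MISham and from 231.0 to 267.7 in IRSham, and fell by 0.63 ± 0.10 on counts (adjusted p = 0.000404, edgeR). Its TPM change of -0.73 had an adjusted p of 0.152 (limma). The third member, Hlf, had -0.12 ± 0.28 (adjusted p = 0.899, edgeR). Among rhythmic outputs, Wee1, a kinase that delays mitosis, fell by 0.47 ± 0.11 (adjusted p = 0.0202; 0.0714 with protein-coding genes alone in the fit), and the tetraspanin Tspan4 fell by 0.56 ± 0.12 (adjusted p = 0.0106). None of the 5 kinases and ubiquitin ligases that set the stability of the period and cryptochrome proteins was called by edgeR, DESeq2 or limma; at an unadjusted p under 0.05 there were 0 on counts and 1 on TPM.

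**Figure D2:**
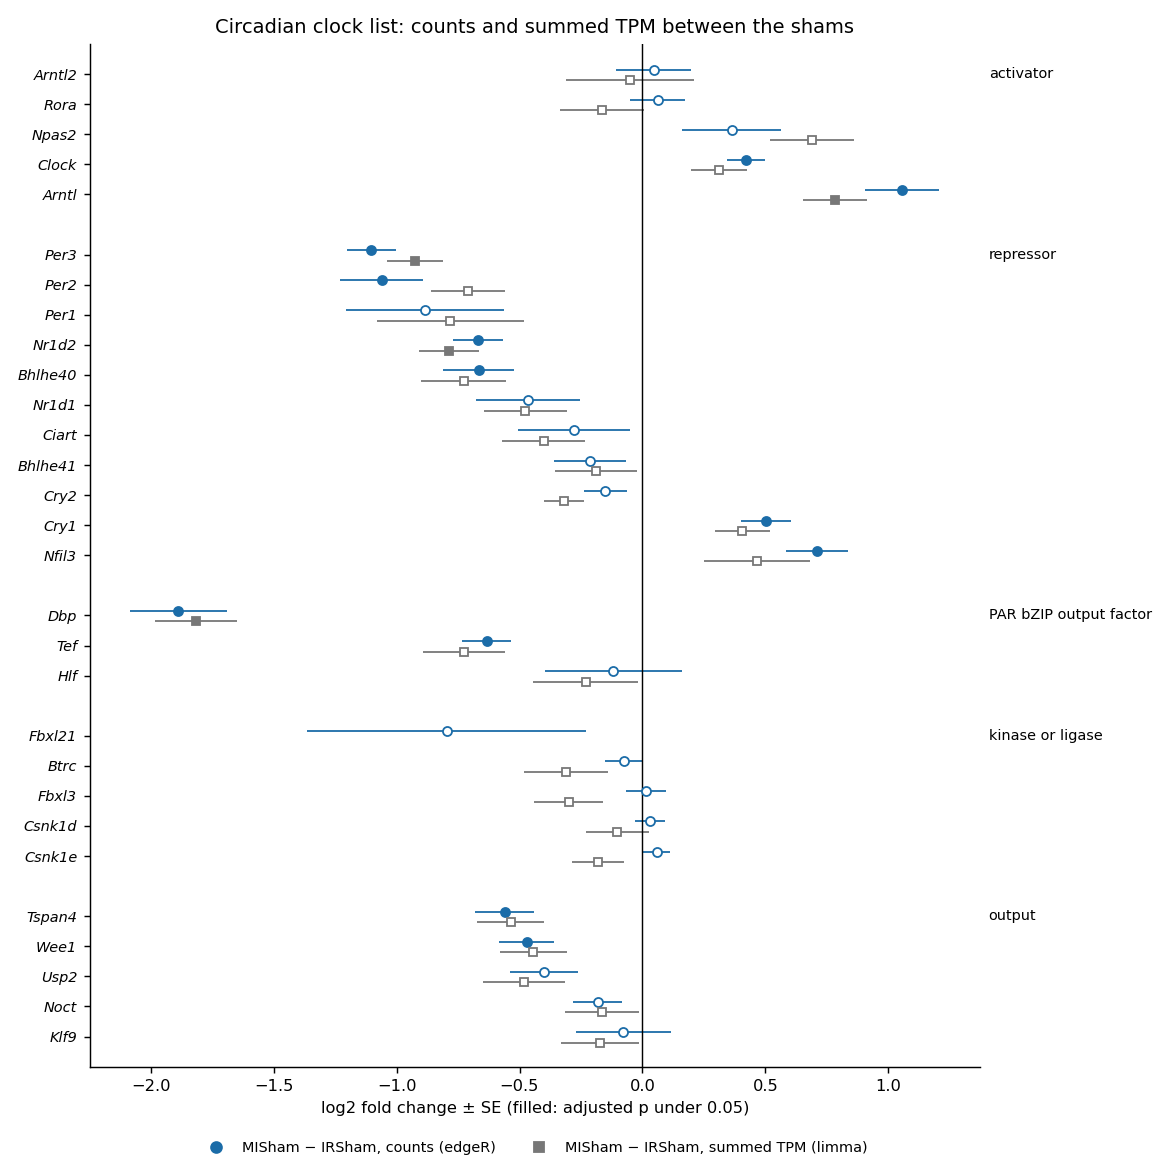
Log2 fold change ± SE of MISham against IRSham for 29 of the 30 clock genes on counts (circles, edgeR) and for those tested on summed TPM (squares, limma), grouped by role; filled symbols passed an adjusted p of 0.05. Arntl lies at 1.06 and Dbp at -1.89 on counts, and the 12 filled circles have squares on the same side of 0.

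Promoter letters were read for clock genes because they are the sites through which the loop is known to act: the E-box CACGTG (BMAL1 and CLOCK), the D-box TTANGTAA (Dbp, Tef, Hlf, Nfil3) and the RORE, TAGGTCA after an A and 2 bases of any kind (REV-ERB). The 250 bases before each annotated start were searched on both strands in RefSeq sequence of GRCm38.p6, in which 23 of the 30 members had an entry. A D-box was found in 1 of the 23 members, Per3, which held 2, starting 205 and 158 bases before its start. Of all 32851 promoter windows, 2.06% held at least 1. An E-box was found in 6 of the 23 members, among them Cry1, Tef and Tspan4 of the genes called on counts, and in 6.02% of all windows. A gene can have more than 1 window, as Tef has, so shares of members and of windows are unlike measures. No window of the 23 held this RORE (0.609% of all). The stretches below run 5′ to 3′ on the gene's strand, with the match in capitals: Per3 at chr4:151044796-151044890 on the minus strand, Cry1 at chr10:85185089-85185134 on the minus strand, and Tspan4 at chr7:141476309-141476354 on the plus strand. A match is a description of these letters and no evidence of binding.
Per3: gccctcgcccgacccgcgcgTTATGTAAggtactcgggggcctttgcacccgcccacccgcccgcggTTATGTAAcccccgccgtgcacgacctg
Cry1: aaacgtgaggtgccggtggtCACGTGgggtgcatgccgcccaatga
Tspan4: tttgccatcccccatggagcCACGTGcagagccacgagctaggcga

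The injured hearts share no library with the shams, and the same contrast was made there, MI against IR. Depth was not matched in it. MI libraries held 57.2 to 63.1 M counts and IR libraries 26.2 to 31.8 M. Genes with at least 10 counts numbered 21232 to 21555 in MI and 18375 to 18760 in IR. The part of depth in the MI against IR results was not tested. Dbp was 4.48 ± 0.94 CPM in MI and 9.43 ± 3.62 in IR, a log2 change of -1.07 ± 0.20 (adjusted p = 0.00266, edgeR). Per3 fell by 0.84 ± 0.10 (adjusted p = 1.615e-05), Nr1d2 by 0.49 ± 0.10 (adjusted p = 0.00581) and Tef by 0.52 ± 0.10 (adjusted p = 0.00257) in the same direction as in the shams. With Rora these were the 5 clock members called lower in MI, where 2.7% of protein-coding genes were called lower. Of the 12 members called on counts between the shams, 8 kept their sign between MI and IR.

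Arntl did not follow. It averaged 20.7 ± 2.62 CPM in MI and 27.4 ± 4.82 in IR, a log2 difference of -0.41 ± 0.15 (adjusted p = 0.114, edgeR). The difference between the sham and the injured contrast was 1.46 (adjusted p = 0.0158 on counts, edgeR; 0.0245 on TPM, limma). By that interaction test, 0.249% of protein-coding genes were called. Per2 averaged 12.6 ± 1.25 CPM in MI and 12.9 ± 2.27 in IR, and its interaction of -1.03 did not pass (adjusted p = 0.0781).

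ER protein folding. Hspa5, Hyou1 and Manf were each more than doubled in MISham on counts. These 3 of 43 listed members were called by both tests, beside 0.0401% of all protein-coding genes in that direction. With only the 8 sham libraries in the fit, none of the 3 was called by both. Leaving out 1 library at a time gave 0 to 7 members called by both. On counts alone 11 members were higher and none lower by edgeR (0.477% of all protein-coding genes were higher); 20 of the 43 had an unadjusted p under 0.05, and DESeq2 called 15, beside 1.11% of all protein-coding genes. All 11 kept their sign on TPM, 10 of them with an unadjusted p under 0.05. The 8 called on counts alone had adjusted TPM p-values from 0.0576 to 0.496 (limma). The list's median log2 fold change was only 0.09, since 8 of the 11 were among its 13 chaperones and co-chaperones, whose median was 0.37.

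Hspa5 encodes BiP, the main HSP70 chaperone of the ER lumen. It stood at 1276, 1009, 1375 and 1813 CPM in MISham and at 653.7, 661.5, 637.5 and 657.5 in IRSham. IRSham libraries were nearly level, and MISham libraries spread widely above them. The log2 fold change was 1.07 ± 0.14 (adjusted p = 6.171e-05, edgeR), with 0.99 ± 0.15 on TPM (adjusted p = 0.0170, limma).

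Hyou1 encodes GRP170, the exchange factor that recycles BiP. It stood at 143.7, 113.9, 169.8 and 204.5 CPM in MISham and at 67.6, 79.5, 64.3 and 74.7 in IRSham, a change of 1.14 ± 0.14 (adjusted p = 4.307e-05, edgeR). Manf, a secreted ER protein that binds BiP, stood at 85.9, 60.3, 106.6 and 129.5 CPM against 34.4, 38.2, 38.1 and 37.7. It had the largest change of the 3, 1.37 ± 0.18 (adjusted p = 0.000157, edgeR; 1.13 ± 0.19 on TPM, adjusted p = 0.0237, limma). In all 3 genes MISham library 4 was highest and library 2 lowest.

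The same order of MISham libraries was seen in the summed CPM of the 13 chaperones, which was 3525, 2845, 3793 and 4518 in MISham libraries 1 to 4. In IRSham the sum lay between 2269 and 2343. Summed immediate early genes, which respond to acute stimuli, had the same order, at 559.5, 481.7, 674.4 and 1083 CPM in MISham and 568.1 to 659.8 in IRSham; edgeR, DESeq2 and limma called none of these 17 genes, with 1 at an unadjusted p under 0.05 on counts and 2 on TPM, and their part in the chaperone result was not tested. Hsp90b1, which encodes GRP94, followed at 0.79 ± 0.13 (adjusted p = 0.000935, edgeR). Dnajb9, a BiP co-chaperone also known as ERdj4, had 0.97 ± 0.17 (adjusted p = 0.00246), and its TPM change of 0.79 had an adjusted p of 0.0602 (limma). Dnajc3 (0.37 ± 0.08, adjusted p = 0.00928), the lectin chaperone Canx (0.28 ± 0.07, adjusted p = 0.0204) and Sdf2l1 (0.99 ± 0.25, adjusted p = 0.0470) were also higher by edgeR, although Sdf2l1 overlapped between the shams and lost its call under 13 of 16 alternatives. Canx lost it under 7, among them the replicate block (adjusted p = 0.0568), and the sensor gene Atf6 under 6. Calr, the soluble partner of Canx, had 0.17 ± 0.10 and did not pass (adjusted p = 0.507).

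Outside the chaperones, edgeR called 1 of 8 disulfide isomerases or oxidases, 1 of 10 degradation or translocation genes and 1 of 7 sensors or transcription factors. All were higher, beside 0.477% of all protein-coding genes. DESeq2 called 2, 3 and 2 members of these roles higher, beside 1.11% of all protein-coding genes. Creld2, a disulfide isomerase, ranged from 24.1 to 40.7 CPM in MISham and from 15.9 to 19.2 in IRSham, a change of 0.90 ± 0.12 (adjusted p = 0.000122, edgeR) with 0.75 on TPM (adjusted p = 0.0576, limma). Selenos, a selenoprotein of ER-associated degradation, had 0.38 ± 0.07 (adjusted p = 0.0025, edgeR). Among sensors and transcription factors, Atf6 rose by 0.36 ± 0.09 (adjusted p = 0.0240, edgeR). Xbp1 had 0.36 ± 0.10 (adjusted p = 0.0608 by edgeR and 0.0128 by DESeq2). Atf4 had 0.09 (adjusted p = 0.771, edgeR) and Ddit3, which encodes CHOP, -0.17 (adjusted p = 0.657, edgeR). The 5 targets of ATF4 or CHOP had a median of -0.15, and neither edgeR nor DESeq2 called any of them; 1 had an unadjusted p under 0.05 on counts.

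Promoters of the ER genes were searched for the ER stress element, CCAAT and CCACG with 9 bases of any kind between them, the letters through which ATF6 and XBP1 are known to act with NF-Y. It was in the 250 bases before the start of 10 of the 37 members with an entry, and in 0.113% of all windows. Of the 8 members called on counts that had an entry, 5 held it: Hspa5, Hsp90b1, Canx, Dnajc3 and Creld2. Their stretches are shown because they are called members of the list that share these letters. Hspa5 lies at chr2:34772005-34772063 (plus strand), Canx at chr11:50325780-50325838 (minus), Dnajc3 at chr14:118937807-118937865 (plus) and Creld2 at chr15:88819500-88819558 (plus; match on the opposite strand), in GRCm38.p6. Hsp90b1, at chr10:86705513-86705676 (minus), held 2 matches, 212 and 107 bases before its start, on opposite strands.
Hspa5: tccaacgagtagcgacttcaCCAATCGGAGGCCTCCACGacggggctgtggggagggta
Canx: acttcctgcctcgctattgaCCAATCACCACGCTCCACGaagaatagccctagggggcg
Dnajc3: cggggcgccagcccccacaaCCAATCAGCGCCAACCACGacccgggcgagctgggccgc
Hsp90b1: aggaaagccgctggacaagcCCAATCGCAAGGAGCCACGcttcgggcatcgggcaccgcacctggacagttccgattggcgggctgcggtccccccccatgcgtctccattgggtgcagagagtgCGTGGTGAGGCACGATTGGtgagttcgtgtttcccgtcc
Creld2: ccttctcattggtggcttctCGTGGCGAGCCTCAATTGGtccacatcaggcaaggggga

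Between the injured groups, 9 ER members were higher in MI than in IR and none lower by edgeR, where 3.37% of protein-coding genes were higher in MI. Hyou1 rose by 0.55 ± 0.14 (adjusted p = 0.0233) and Creld2 by 0.61 ± 0.12 (adjusted p = 0.00343). Hspa5 had 0.36 ± 0.14 (adjusted p = 0.148) and Manf 0.51 ± 0.18 (adjusted p = 0.104), and neither passed. The larger sham difference of Hspa5 was not called by the interaction test (0.71, adjusted p = 0.119). The ATF4 targets Trib3 and Asns, at 0.00 and 0.08 between the shams, rose by 0.84 (adjusted p = 0.00474) and 0.93 (adjusted p = 0.00769) in MI over IR. Cytosolic heat shock genes are induced by another pathway. Between the shams 2 of 20 such genes were higher on counts by edgeR (0.477% of all protein-coding genes) and 3 by DESeq2: Hsph1 had 0.62 ± 0.15 (adjusted p = 0.0357, edgeR) and Chordc1 0.35 ± 0.07 (adjusted p = 0.00746), and neither was called on TPM. Between MI and IR 7 of the 20 were higher, beside 3.37% of all protein-coding genes, Hsph1 by 0.59 (adjusted p = 0.0280).

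**Figure D3:**
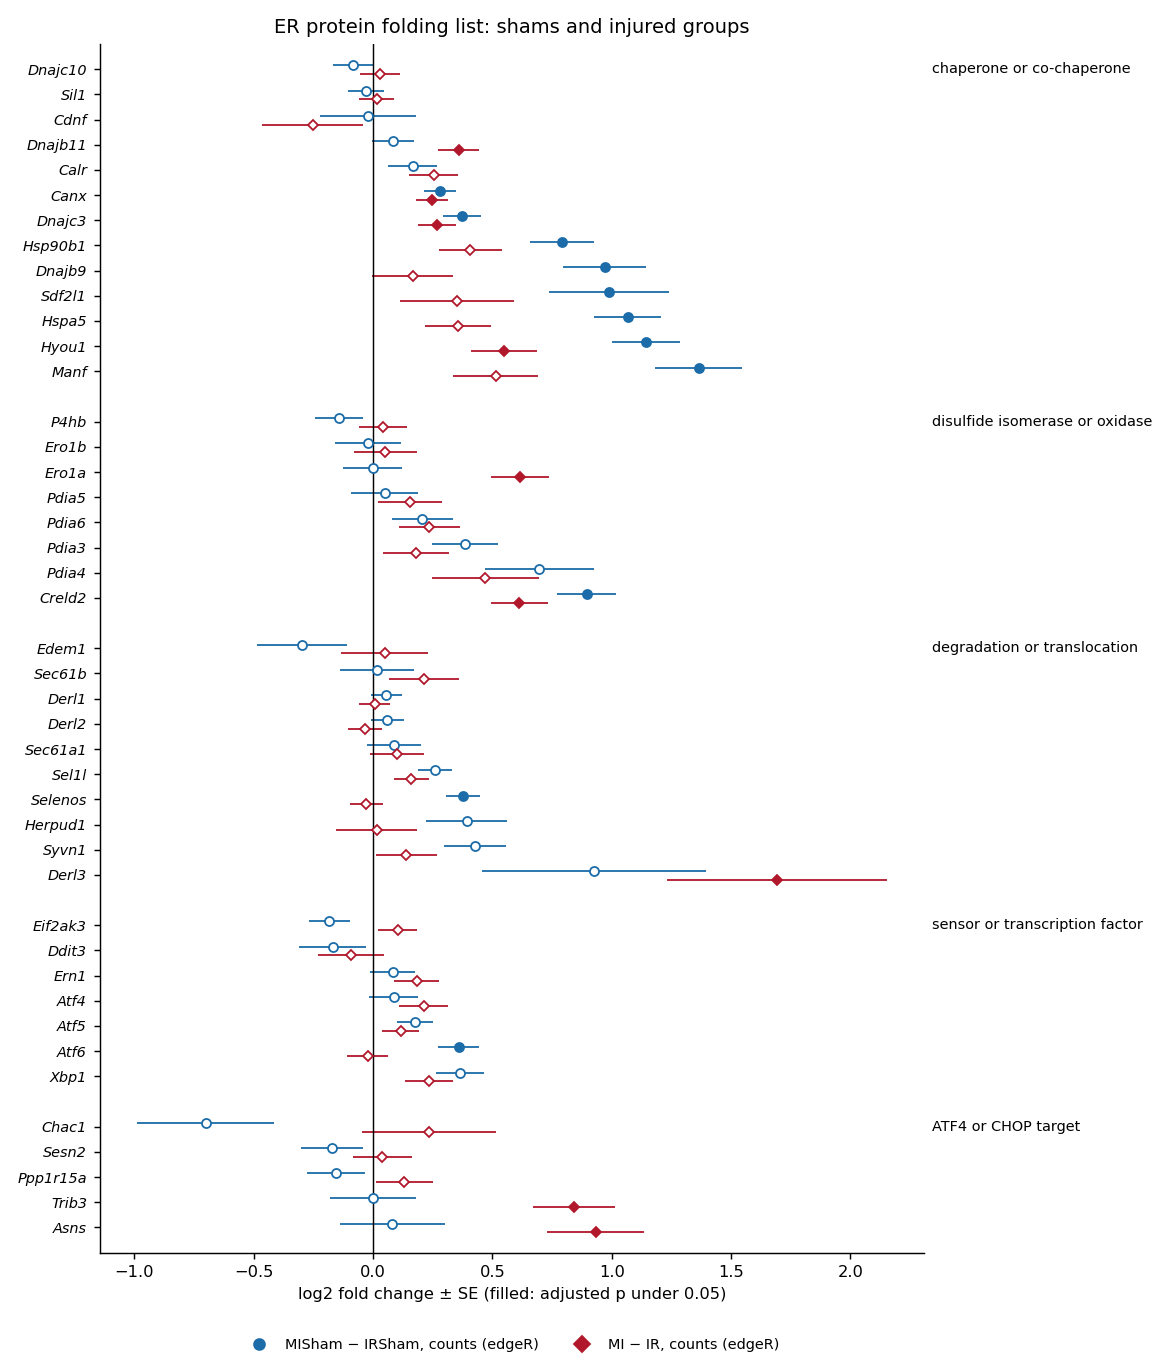
Log2 fold change ± SE on counts (edgeR) of the 43 ER genes, grouped by role, for MISham against IRSham (circles) and MI against IR (diamonds); filled symbols passed an adjusted p of 0.05. Of the 11 filled circles, 8 are chaperones or co-chaperones, while Trib3 and Asns are filled for the injured contrast only.

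Smooth muscle. Acta2 and Myl9 were lower in MISham and were called by both tests, 2 of 31 listed members beside 0.0401% of all protein-coding genes in that direction. Acta2 encodes smooth muscle alpha-actin, which is also made by myofibroblasts. It stood at 90.9, 47.8, 77.8 and 78.0 CPM in MISham and at 224.4, 356.2, 329.6 and 528.1 in IRSham. The IRSham libraries spread widely, and all 4 were above every MISham library. The gene was 4.88-fold lower, a log2 change of -2.29 ± 0.22 (adjusted p = 4.499e-06, edgeR), with -2.32 ± 0.23 on TPM (adjusted p = 0.000193, limma).

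Myl9, the regulatory light chain of smooth muscle myosin, stood at 23.5, 18.6, 20.98 and 30.3 CPM in MISham and at 31.1, 48.8, 45.7 and 46.5 in IRSham. MISham library 4 and IRSham library 1 nearly met. Myl9 fell by 0.88 ± 0.15 on counts (adjusted p = 0.00124, edgeR) and by 0.96 ± 0.16 on TPM (adjusted p = 0.0234, limma). On counts alone the heavy chain Myh11 fell by 0.40 ± 0.10 (adjusted p = 0.0313) and the myosin light chain kinase Mylk by 0.27 ± 0.07 (adjusted p = 0.0345), against 1.0% of all protein-coding genes called lower; Myh11 overlapped between the shams. On TPM they had -0.37 (adjusted p = 0.260, limma) and -0.51 (adjusted p = 0.348). Both count calls were lost with RLE size factors (adjusted p = 0.0554 and 0.0642), and in all Myh11 lost its call under 10 of 16 alternatives and Mylk under 11. Leaving out 1 library ended the call of Myh11 for MISham 1, 2 or 3 and IRSham 1, 3 or 4, and that of Mylk for MISham 2 or 4 and IRSham 1, 3 or 4.

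No other contractile gene was called by edgeR; DESeq2 also called Lmod1, a leiomodin of smooth muscle, at -0.71 ± 0.22 (adjusted p = 0.0340; 0.0975 by edgeR). Tagln was at 0.34 ± 0.28 CPM in MISham and 0.69 ± 0.28 in IRSham, and Cnn1 at 1.54 ± 0.65 and 2.32 ± 0.53. These levels were low, and the part of depth in the missing calls was not tested. Smtn, which binds smooth muscle actin, had 0.12 (adjusted p = 0.749, edgeR), and Myocd, the coactivator of the smooth muscle program, had 0.07 (adjusted p = 0.918). No pericyte gene was called by edgeR, DESeq2 or limma; 4 of 11 had an unadjusted p under 0.05 on counts and 2 on TPM. Rgs5, the most abundant of them, averaged 605.0 ± 28.1 and 628.5 ± 33.0 CPM, and Pdgfrb had -0.23 ± 0.08 (adjusted p = 0.142). Of 16 endothelial genes edgeR and limma called 0 and DESeq2 1, with 3 at an unadjusted p under 0.05 on counts.

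The CArG box, the site of serum response factor, was searched only as CCWWWWWWGG, where W is A or T. It was found for 2 of the 22 smooth muscle list members with an entry, Myl9 and Srf, and in 1.47% of all windows. The first is a share of genes and the second a share of windows. Of the 4 members called on counts, 3 had an entry. No match to these exact letters was found for Acta2, and sites that depart from them were not searched. The Myl9 stretch, at chr2:156775283-156775332 on the plus strand in GRCm38.p6, is shown because it is the called member with a match, in capitals, 161 bases before its start.
Myl9: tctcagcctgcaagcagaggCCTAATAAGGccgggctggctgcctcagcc

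In the injured hearts Acta2 stood at 384.8 ± 11.6 CPM in MI and 304.1 ± 29.1 in IR, a log2 difference of 0.34 ± 0.21 (adjusted p = 0.397, edgeR). The sham and injured contrasts differed by -2.63 (adjusted p = 0.00605 on counts, edgeR; 0.00312 on TPM, limma). IRSham libraries overlapped those of the injured groups, while the 4 MISham libraries lay below all 12 other short-read libraries. Myl9 averaged 65.5 ± 3.08 CPM in MI and 64.8 ± 7.99 in IR, and its interaction of -0.90 did not pass (adjusted p = 0.0859).

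**Figure D4:**
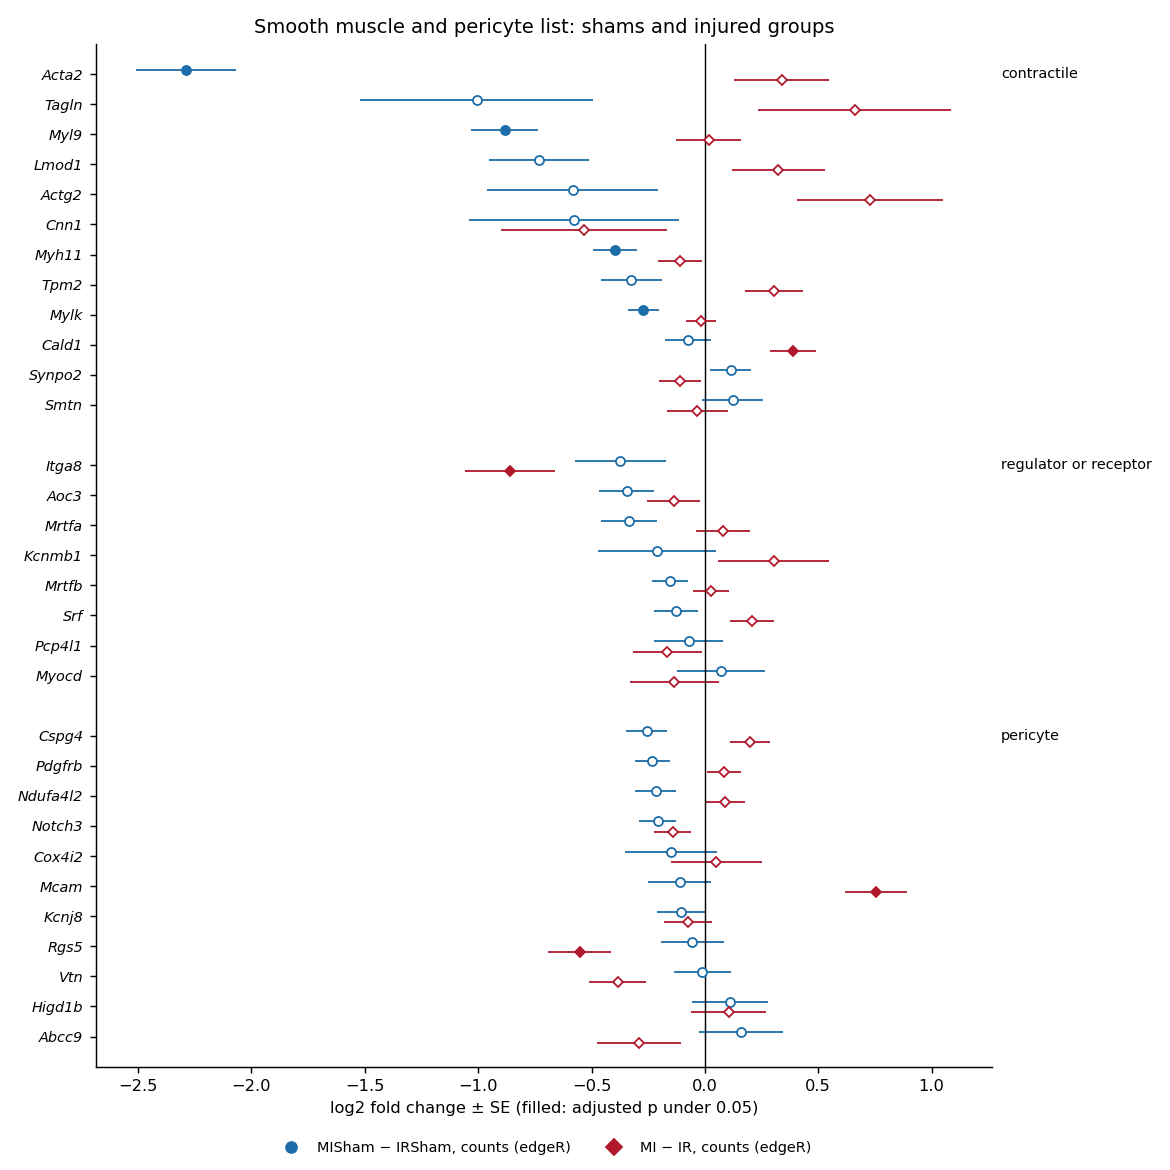
Log2 fold change ± SE on counts (edgeR) of the 31 smooth muscle and pericyte genes, grouped by role, for MISham against IRSham (circles) and MI against IR (diamonds); filled symbols passed an adjusted p of 0.05. Acta2 lies at -2.29 between the shams and at 0.34 between MI and IR.

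Inflammation and wound matrix. No member was called by both tests. Of 97 listed genes 91 were measured, and edgeR called 1 on counts, Trem2, lower in MISham, where 1.0% of all protein-coding genes were lower. DESeq2 called 8, all lower, where it called 1.94% of all protein-coding genes lower, and limma on TPM called 0 of 85. At an unadjusted p under 0.05 there were 21 on counts, beside 1944 of 14471 protein-coding genes, and 30 on TPM, beside 1521 of 12462. In sign, 74 of the 91 were negative, beside 8562 of 14471 protein-coding genes. The median log2 fold change was -0.48, against -0.04 over all protein-coding genes.

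Trem2, a lipid receptor of phagocytic macrophages, stood at 16.0, 4.90, 10.2 and 6.95 CPM in MISham and at 17.3, 23.4, 26.4 and 26.9 in IRSham. MISham library 1 came close to IRSham library 1, and the other MISham libraries were far lower. The log2 change was -1.29 ± 0.32 (adjusted p = 0.0431, edgeR), with -1.28 on TPM (adjusted p = 0.160, limma). The call was lost under 11 of 16 alternatives, among them scaling by library size alone (adjusted p = 0.0522), protein-coding genes alone (0.0862), the replicate block (0.0765) and fits without any 1 of MISham libraries 2, 3 and 4 or IRSham libraries 2, 3 and 4 (0.0834 to 0.145). All 23 macrophage genes had a negative fold change, as had 8562 of all 14471 protein-coding genes. A pair of related genes was called by DESeq2 and not by edgeR. Gpnmb had -2.10 ± 0.54 (adjusted p = 0.053 by edgeR and 0.000999 by DESeq2). Spp1, which encodes osteopontin, had -2.13 ± 0.61 (adjusted p = 0.097 by edgeR and 0.00239 by DESeq2).

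The spread within MISham was wide. Libraries 1 and 3 were both above libraries 2 and 4 in 73 of the 91 genes, and in 3874 of all 14471 protein-coding genes. Summed macrophage genes came to 1863 and 1417 CPM in libraries 1 and 3 and to 781.5 and 858.4 in 2 and 4, against 1456 to 2359 in IRSham. Summed wound matrix genes came to 8068 and 11210 CPM against 3070 and 4130, with 7275 to 10960 in IRSham. Libraries 1 and 3 lay within or near the IRSham range and libraries 2 and 4 below it in both sums.

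Single genes followed the sums. Col1a1, the chain of type I collagen, stood at 1245, 338.9, 2245 and 595.3 CPM in MISham and between 1198 and 1903 in IRSham. Its log2 difference was -0.52 ± 0.40 (adjusted p = 0.617, edgeR). Lyz2, lysozyme of myeloid cells, stood at 624.0, 222.4, 479.6 and 267.9 CPM and between 445.5 and 853.0 in IRSham. Timp1, an inhibitor of matrix proteases, ran from 6.48 to 80.8 CPM within MISham, wider than the 26.6 to 63.1 of IRSham.

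Acute cytokines and neutrophil genes were low and uneven. Il1b stood at 13.7, 0.94, 32.1 and 3.36 CPM in MISham and at 3.78, 9.82, 12.3 and 27.8 in IRSham, so that each sham held high and low libraries. The alarmin genes S100a8 and S100a9 had 0.17 and 0.12 on the log2 scale (adjusted p = 0.936 and 0.957, edgeR). Of 11 neutrophil genes 6 were tested, and Ly6g, Camp and Elane were not among them. The summed neutrophil genes ran from 18.2 to 59.9 CPM in MISham and from 26.3 to 80.6 in IRSham.

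**Figure D5:**
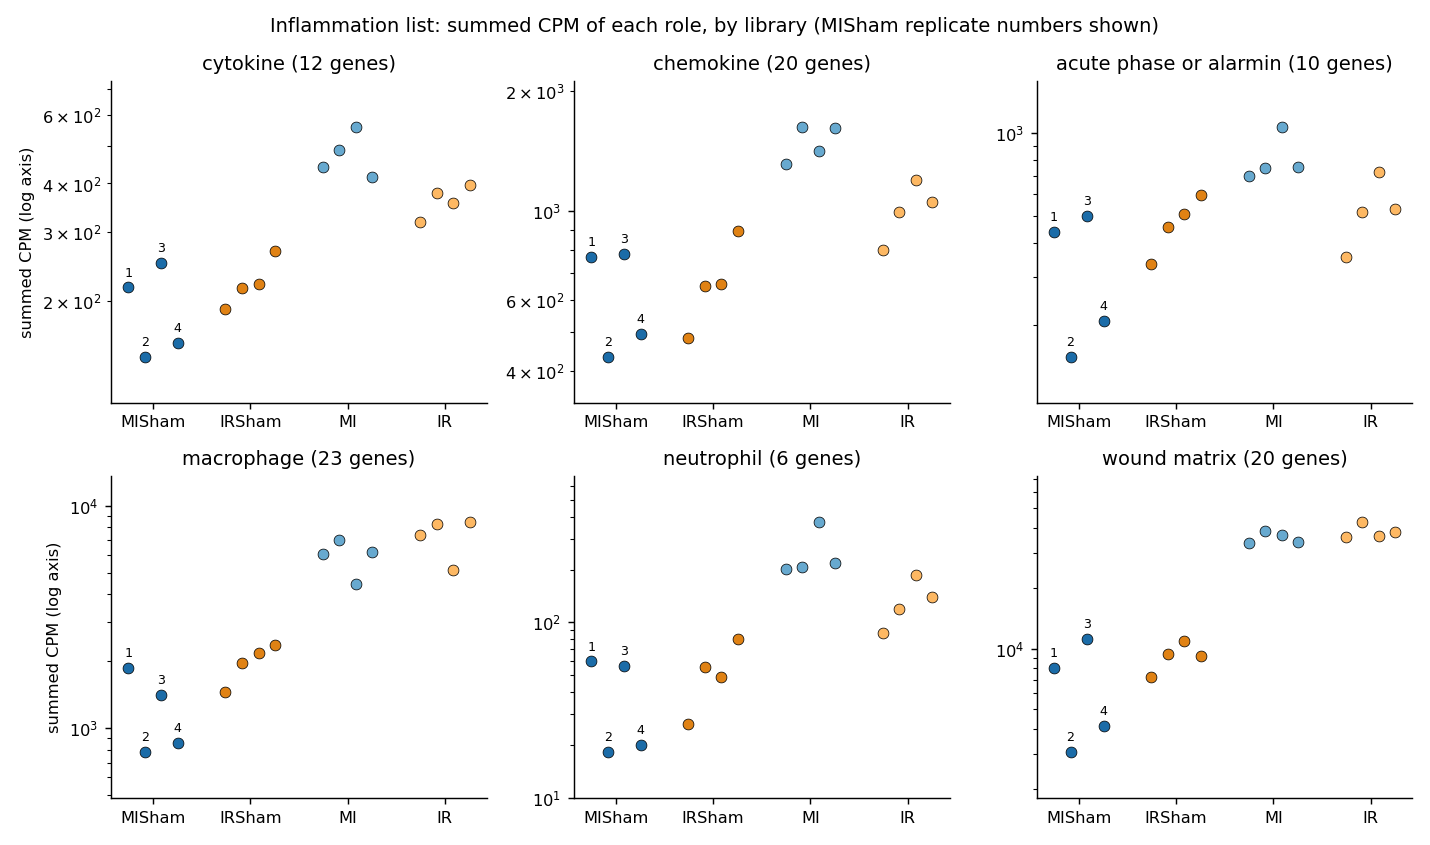
Summed TMM-scaled CPM (log axis) of the inflammation genes in 6 roles, by library in MISham, IRSham, MI and IR, with replicate numbers for MISham. In every panel MISham libraries 1 and 3 lie above 2 and 4; the macrophage sum of 2 is 781.5 CPM and that of 1 is 1863.

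A fit without MISham libraries 1 and 3 is given as a description only, since these libraries were singled out for their high values in this same list, which fixes the direction of its members. That fit called 392 of all protein-coding genes by both tests (3.13%), 33 of them inflammation and wound matrix genes, and rests on 2 MISham libraries; nothing is read from these counts. Cell cycle genes moved with the inflammation list across MISham: 23 of 24 were higher in libraries 1 and 3 than in 2 and 4, with sums of 258.4 and 350.3 CPM against 159.4 and 177.0; their part in the result was not tested.

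In the clock and ER lists, MISham libraries 1 and 3 were both above 2 and 4 in 5 of 30 clock genes and in 13 of 43 ER genes. Between MI and IR, the inflammation list had 2 genes higher and 1 lower by edgeR, of 91, beside 3.37% and 2.7% of all protein-coding genes, with a median of 0.28; Csf1, a macrophage growth factor, had 0.43 (adjusted p = 0.0282) and Ccl8, a monocyte chemokine, -1.24 (adjusted p = 0.0341).

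Beyond the 4 lists, Tmem171 stood at 13.9, 11.2, 8.66 and 11.99 CPM in MISham and at 6.14, 4.84, 6.16 and 6.01 in IRSham. It rose by 0.98 ± 0.16 (adjusted p = 0.000686, edgeR) and by 0.79 ± 0.13 on TPM (adjusted p = 0.0208, limma). It averaged 3.03 ± 0.22 CPM in MI and 4.03 ± 0.59 in IR, below both shams; in TPM the IR mean of 4.74 was above the IRSham mean of 4.50. On counts the sham and injured contrasts differed by 1.39 (adjusted p = 0.0245, edgeR). In the other lists no gene was called by both. Ankrd1, a stretch-responsive gene of cardiomyocytes, averaged 950.1 ± 256 CPM in MISham and 1654 ± 228 in IRSham, and fell by 0.80 ± 0.19 on counts (adjusted p = 0.0190, edgeR) with -0.92 on TPM (adjusted p = 0.1005, limma). Fatty acid oxidation and respiratory chain genes had positive signs in 22 of 24 and 23 of 24, with medians of 0.19 and 0.12, and none was called by edgeR, DESeq2 or limma or had an unadjusted p under 0.05 on counts or TPM.

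The 2 measures parted for Gapdh, for other protein-coding genes such as Rpl21, and for pseudogenes. Gapdh, a glycolytic enzyme with numerous pseudogenes, averaged 113 ± 25.6 CPM in MISham and 2900 ± 251 in IRSham, a log2 difference of -4.68 on counts (adjusted p = 8.074e-12, edgeR). Its summed TPM was 1892 ± 169 and 2161 ± 323, a difference of -0.18 (adjusted p = 0.555, limma). The same held in the injured hearts, at 85.7 ± 10.6 CPM in MI and 1844 ± 98.2 in IR. On counts Rpl21, Hnrnpa3 and Hmgb1 had -1.68, -1.56 and -1.35 between the shams (adjusted p = 8.074e-12, 1.3e-09 and 8.5e-10, edgeR). On summed TPM they had -0.31, -0.24 and -0.20 (adjusted p = 0.365, 0.567 and 0.560, limma). Such genes are among the 214 called on counts, and so in the shares of all protein-coding genes given above. How many there are was not counted. Of 1069 pseudogenes tested on counts, 395 were called (37.0%), and 383 of them were higher in MISham (35.8%). Pseudogenes took 0.758 ± 0.104% of counts in MISham and 0.355 ± 0.0915% in IRSham (two-sided exact permutation p = 0.0286, the smallest that 4 against 4 libraries allow; 0.114 adjusted over 8 library measures). The share of mitochondrial genes, 7.98 ± 0.42% and 7.00 ± 0.23%, also did not overlap and had the same p-values. In summed TPM the share of pseudogenes was 2.94 ± 0.79% in MISham and 2.80 ± 0.52% in IRSham. The sources used here do not describe how reads with several matches were assigned, and its part in the count differences was not tested.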

How the data were processed

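The authors deposited raw counts per gene and TPM per transcript for 16 short-read libraries; per the submitters' processing notes the tools were HISAT2 2.2.1, SAMtools 1.7, featureCounts 2.0.1 and kallisto 0.50.1 on GRCm39. Strand setting, annotation release and treatment of multi-mapping reads are not given in the sources used here. The 4 long-read libraries were not analysed here. Names and biotypes came from GENCODE M21 by Ensembl ID (52081 of 63318 genes; 138330 of 163740 transcripts).

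Counts were tested with edgeR 4.0.16 in R 4.3.3 (TMM, filterByExpr with minimum count 10 and minimum total 15, robust quasi-likelihood fit, 1 mean per group over 16 libraries, Benjamini-Hochberg over 19741 genes). Deposited TPM was summed per gene and tested with limma 3.58.1 on log2(TPM + 1), with a trend, for 14323 genes with a mean of at least 1; this scale understates changes of low genes. The threshold was an adjusted p of 0.05. SE of edgeR changes was derived from the test statistic. DESeq2 1.42.0, other scalings, filters, a pseudocount of 0.1 and left-out libraries were alternatives. Scripts were tested on simulated data. Counts are from 24.3 to 29.8 M per sham library. Named genes are the members of the 4 lists, genes called by both measures with no overlap and a mean of at least 1 CPM (up to 12 in each direction), up to 4 members called by both in each other list (there were none; members called by 1 measure were named after their values were seen) and the most abundant markers of a described cell type. The members and lists were chosen with earlier results of these data known; values of some listed genes are not reported here. Promoter sequence is from RefSeq, GRCm38.p6.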

Additional observations from a re-analysis of the deposited data

Results flagged for a closer look

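In 3 genes the sham and the injured contrast differed by an interaction test (edgeR). Arntl had an interaction of 1.46 (adjusted p = 0.0158), with 1.06 between the shams and -0.41 between MI and IR. Acta2 had -2.63 (adjusted p = 0.00605), with -2.29 and 0.34. Tmem171 had 1.39 (adjusted p = 0.0245), with 0.98 and -0.41.

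In 7 of 132 groups of 4 libraries, 1 library stood far from the other 3, and chance gives about 1 in 20. IRSham library 1 was high for Hyou1 in TPM, at 12.4 beside 11.2 to 11.4 in the others, and low for Manf, at 34.4 CPM and 59.1 TPM. IRSham library 2 was low for Myh11, at 3.33 TPM, and for Tmem171, at 4.84 CPM. Among library measures, IRSham library 1 had the highest share of counts in protein-coding genes, 97.4%, and IRSham library 2 had the fewest genes with at least 10 counts, 17206. The outlying values of Hyou1, Manf and Tmem171 did not reach the MISham range, and that of Myh11 lay just below the highest MISham library, at 3.35 TPM.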

How the results depend on the processing

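On counts all 10 genes called by both were called under each of the 16 alternatives, and none changed sign on either measure. Among genes called on counts alone, calls were lost for Sdf2l1 under 13 alternatives, Mylk and Trem2 11, Myh11 10, Canx and Wee1 7, Atf6 6 and Bhlhe40 and Dnajb9 1 each, with no change of sign. The TPM calls of the 10 were less stable: Acta2 and Dbp were called under all 13 TPM alternatives and Hyou1 under 4. With only the 8 sham libraries in the fit, limma called 0 higher and 3 lower on TPM, 0 higher and 2 lower were called by both (clock 1, ER 0, smooth muscle 1), and edgeR called 125 higher on counts. DESeq2 called 161 higher and 281 lower, and a fit on protein-coding genes alone called 69 lower. RLE size factors moved the higher share of count calls from 32.2% to 40.9%, protein-coding genes alone to 43.4% and sham libraries alone to 53.4%. Without MISham 1 and 3, chosen for their high inflammation values so that the inflammation count follows from the choice, the counts gave 120 higher and 1087 lower, TPM 11 and 480, and both 8 and 384 (clock 7, ER 5, inflammation 33).

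Leaving out 1 library at a time gave 49 to 67 higher and 96 to 298 lower on counts, 0 to 8 and 3 to 20 on TPM, and 0 to 8 and 3 to 15 by both, with clock 2 to 4, ER 0 to 7, inflammation 0 to 2 and smooth muscle 1 to 2. Of the 10 genes, 3 remained called by both without MISham 4, IRSham 3 or IRSham 4, 5 without IRSham 2 and 6 without IRSham 1; fewer libraries were tested in each. The MISham minus IRSham difference in genes detected ran from -228.6 to 28.3 and that in TPM pseudogene share from -0.22 to 0.42 points, both changing sign; without MISham 2 and without MISham 4 the first was 8.25 and 28.3, and without MISham 4 and IRSham 1 the second was -0.22 and -0.047. Over the other measures the ranges were -1.69 to -0.27 M in library total, -0.47 to -0.28 points in protein-coding, 0.37 to 0.45 in pseudogene, -0.058 to -0.0050 in unannotated, 0.84 to 1.16 in mitochondrial and 0.28 to 0.85 in top-10 share. Scaling shifted the median of all genes by less than 0.1 on counts; on TPM it was -0.10.

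Replicate numbers are shared by MISham and IRSham, but same-numbered libraries did not deviate together (correlations -0.15, 0.024, 0.055 and -0.039), and no MISham library correlated best with its own number. With the number as a block, 9 genes were called by both, 8 of them among the 10, and smooth muscle had 1. Tagln, Cnn1 and some cytokines had levels near or under 1 CPM in some libraries, and the part of depth in their results was not tested.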
